A study of Saccharomyces cerevisiae with 16 samples.

Results

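The comparison described here sets the RNA of a ROF1-inducible yeast strain 45 min after induction against the RNA of the same cultures just before it. The members were the 4 arrays of cultures A and B at 0 and 45 min, out of 16 arrays over 8 times, taken by the times in their labels. The cultures were grown under phosphate limitation (20 mg/L phosphate, 30 °C), and 1 µM β-estradiol was added after the 0 min sample. All arrays carried 1 haploid strain of the S288C background, in which the Z3 promoter, marked with URA3, drives ROF1 and the hybrid activator Z3EV is made from the ACT1 promoter. The strain lacks HIS3, CAN1 and LYP1 and carries a functional HAP1. Sample RNA (Cy5, red) was hybridised beside RNA of the reference strain DBY12001 (Cy3, green), and values are log2 ratios of red over green with both signals floored at 50. No strain without the ROF1 construct was sampled after β-estradiol on these arrays, so a response to β-estradiol or to Z3EV and one to ROF1 cannot be told apart. Each culture had its own slide, and both slides held a given time at the same array position, so that position and time cannot be told apart either.

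Rof1 belongs to the WOPR family of DNA-binding proteins, whose best known member, Wor1 of Candida albicans, switches cells between heritable states. In budding yeast the related protein Mit1 and a network of further factors, among them Phd1, Flo8, Tec1 and Sfg1, govern filamentous growth, flocculation and colony shape. Z3EV stays outside the nucleus until β-estradiol binds it. It then activates the Z3 promoter within minutes, and genes under the control of the induced factor follow.

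On the 4 arrays the median red signal lay between 1203.4 and 1365.8, and 93.7% to 97.0% of spots exceeded background clearly in this channel. At 0 min the deleted genes were far below the reference: HIS3 stood at -6.81 and -6.83 in cultures A and B, CAN1 at -5.13 and -5.06, and LYP1 at -5.97 and -6.08. Genes of MATa cells were high against the reference (STE2, the α-factor receptor, at 6.68 and 6.51), and MF(ALPHA)1, the α-factor gene of MATα cells, was low (-7.49 and -7.46). The sample and reference strains thus carried markers of opposite mating types at 0 min.

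ROF1 itself was strongly induced. Before induction its red signals were 11.5 (A) and 17.0 (B), under the floor on both arrays, and 841.7 and 1120 at 45 min. The floored ratio therefore moved from 0.00 in both cultures to 3.99 and 3.78, a rise of 3.89 ± 0.20 (SE, n = 2 cultures, limma adjusted p 8.50e-06). The size of this rise depends on the floor and was 2.26 with a floor of 200. URA3, the marker of the construct and an enzyme of pyrimidine synthesis, moved from 0.69 and 0.67 to 3.89 and 3.79, a rise of 3.16 ± 0.08 (SE). The neighbours of ROF1 changed far less and downwards: FMO1, a flavin monooxygenase gene, by -0.52 (adjusted p 1.77e-06), and STB5, a zinc cluster regulator of multidrug resistance and oxidative stress genes, by -0.22 (adjusted p 0.0211).

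At 45 min, 30 genes were lower by at least 2-fold at an adjusted p under 0.05 and 8 were higher (limma, Benjamini-Hochberg over 6046 genes), which is 0.496% and 0.132% of the genes tested. ROF1 and URA3 are among the 8. The genes called lower ranged from 5.81-fold (TBS1) to 2.01-fold (FAA3), with a median log2 change of -1.38, against a median of 0.00 over all genes. Arrays at 0 and 45 min did not overlap for any of the 30 and 8 genes, and the change had the same sign in both cultures for each. These genes were chosen for their size of change on the same arrays, and over all genes tested 55.2% did not overlap and 69.9% had the same sign. The change differed between cultures A and B by under 0.2 for 28 of the 30 and 7 of the 8 genes, against 97% of all genes (median gap 0.055), so the called genes were no closer between cultures than the rest. The widest gaps among them were 0.24 for YAP6 and 0.21 for ROF1. All 38 genes that moved by at least 2-fold also passed the adjusted p, so the fold threshold set both counts. Because the arrays measure RNA from whole cultures, fewer cells that express a gene and less of its RNA per cell cannot be told apart.

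**Figure D1:**
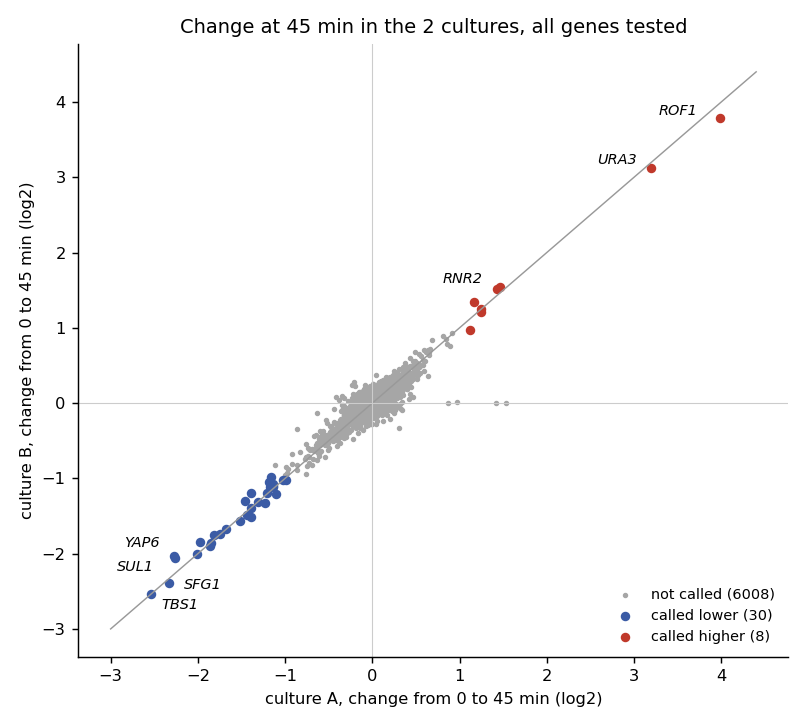
Change from 0 to 45 min on the log2 scale in culture A (x axis) and culture B (y axis) for the 6046 genes tested, 1 point per gene; the line marks equal change, blue and red points are the genes called lower (30) and higher (8). The called genes lie close to the line and apart from the cloud of other genes, with ROF1 and URA3 at the upper end and TBS1 at the lower end. A few uncalled genes, SRL4 (1.54 and 0.00) the farthest among them, rose on the array of culture A and not on that of culture B.

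Transcription regulators were the deepest group, with 8 of the 30 genes called lower and changes between -2.54 and -1.15 (the grouping by role was made after the calls were known). How many of all genes tested have each role was not counted, here or for the groups below, so these counts are a description. TBS1, which encodes a zinc cluster protein, stood at 0.07 and 0.05 in cultures A and B at 0 min and at -2.46 and -2.49 at 45 min. It was the most reduced of all genes tested, 5.81-fold lower (-2.54 ± 0.04 SE, adjusted p 7.67e-09), and the change was the same in both cultures (-2.54 and -2.54). SFG1, a nuclear regulator of superficial pseudohyphal growth, went from 0.60 and 0.63 to -1.73 and -1.76. That is a 5.14-fold fall (-2.36 ± 0.06 SE, adjusted p 1.82e-07).

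YAP6, a bZIP factor that works with the Tup1-Cyc8 corepressor, went from -0.24 and -0.45 to -2.50 and -2.47, and its fall was larger in culture A (-2.27) than in culture B (-2.03). Its relative CIN5, a bZIP factor of the salt and osmotic stress response, fell less, from 0.29 and 0.41 to -0.94 and -0.92. MIT1, the other WOPR gene of this yeast, went from -0.04 and 0.00 to -2.06 and -2.01, a 4.03-fold fall (-2.01 ± 0.05 SE, adjusted p 1.78e-07). Both WOPR genes thus moved in opposite directions, ROF1 up and MIT1 down. GAT2, a GATA-type zinc finger gene, was at -1.67, SUT2, a zinc cluster gene of sterol uptake, at -1.21, and PHD1, an activator of pseudohyphal growth, at -1.15. The changes of these 3 genes differed by under 0.2 between the cultures.

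Of the 11 transcription factor genes that the study names, 11 passed the adjusted p and all were lower, with a median of -1.15. Over all genes tested, 481 (7.96%) lay past this p on the lower side and 531 (8.78%) on the higher side, and with any 1 of the 4 arrays left out 240 to 321 and 249 to 335. The 11 factors stayed past it without each of the 4. The study chose these genes on the same arrays, so their direction is not independent evidence. The 5 below the fold threshold were ACA1, a bZIP gene linked to carbon source use (-0.85), CUP9, a repressor of peptide import (-0.64), NRG1, a repressor of glucose-repressed genes (-0.51), GCN4, the activator of amino acid synthesis (-0.47), and MOT3, a repressor of hypoxic genes (-0.43).

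Among 20 regulators of filamentation and colony morphology, 6 were lower and 3 higher past the test, with a median of -0.07. Beside SFG1, MIT1 and PHD1, the lower ones were NRG1, TEC1, which drives filamentation genes together with Ste12 (-0.29), and SOK2, a repressor of pseudohyphal growth (-0.26). The higher ones were ASH1, the daughter cell repressor of mating-type switching (0.39), HMS1 (0.24) and DIG2, an inhibitor of Ste12 (0.22). The list therefore held activators and repressors on the lower side. Of the 17 genes of the Tup1-Cyc8 corepressor and the DNA-binding proteins that recruit it, 9 were lower and 0 higher, with a median of -0.19. Among these 9 were NRG1, CUP9, YAP6, CIN5, PHD1 and MOT3, which the study chose on the same arrays. The count is therefore not independent evidence. The flocculin genes, the cell surface adhesins that filamentation regulators control, were 5 in number, and 0 passed the test in either direction.

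**Figure D2:**
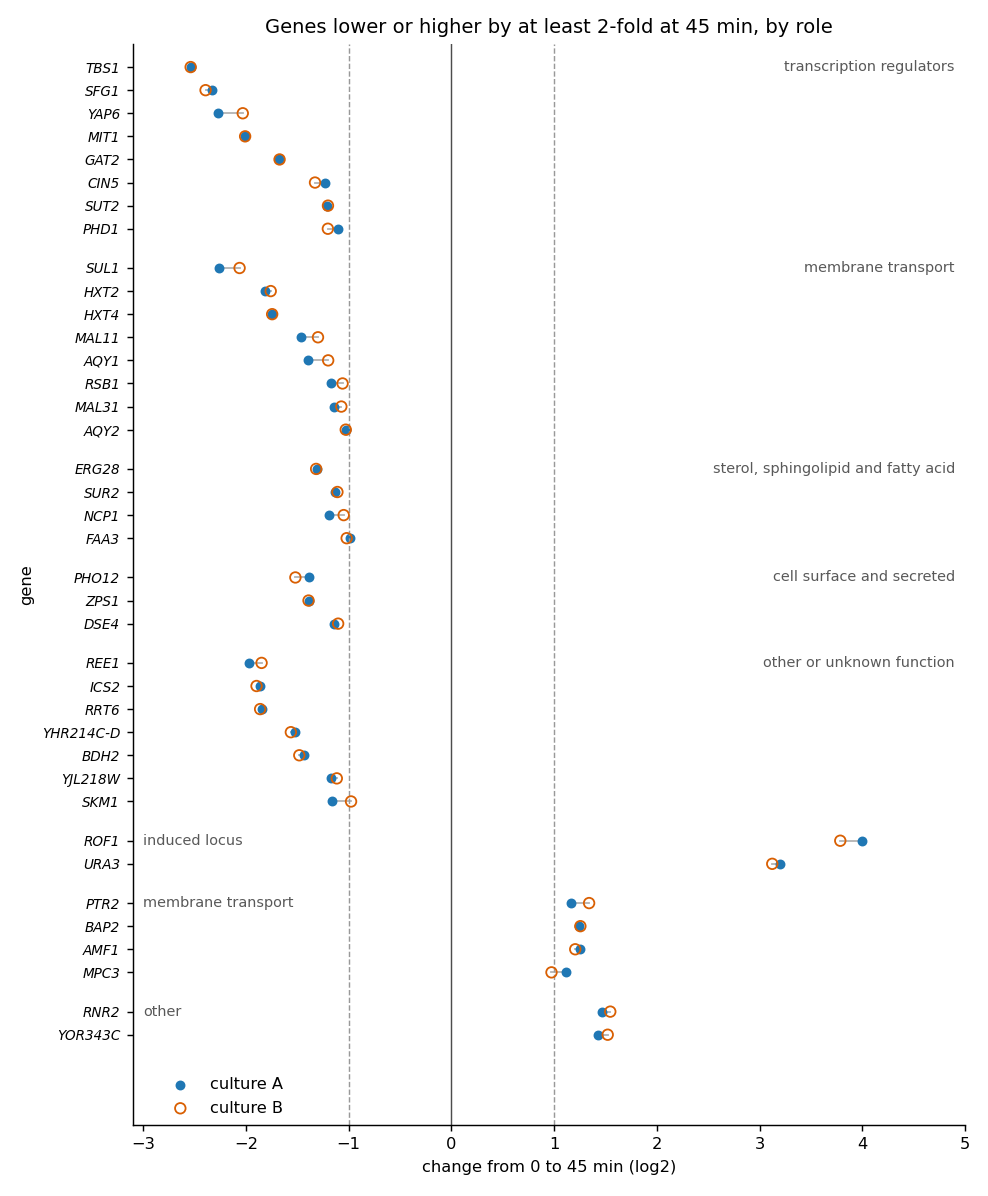
Change from 0 to 45 min on the log2 scale for each of the 38 genes called at 45 min, with filled points for culture A and open points for culture B, ordered by role; dashed lines mark a 2-fold change. Both cultures lie close together for most genes, and the 8 transcription regulators span -2.54 to -1.15 in the mean of both cultures.

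Membrane transport was the other large group, with 8 genes called lower, from -2.16 to -1.03. SUL1, the high-affinity sulfate permease, stood at -1.72 and -2.09 at 0 min and at -3.99 and -4.15 at 45 min. It was already below the reference strain before induction and fell a further 4.48-fold (-2.16 ± 0.09 SE, adjusted p 2.18e-06). On red signals of 114.7 and 92.5 at 45 min, the change ranged from -2.255 to -1.205 across the processing settings tried. The other sulfate and methionine genes moved much less: of 25 tested, 7 were lower and 1 higher (4 to 6 lower with 1 of the 4 arrays left out), and after SUL1 the largest change was that of MMP1, the S-methylmethionine permease (-0.40).

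The glucose transporter genes moved in both directions. HXT2, a high-affinity transporter, went from -0.47 and -0.64 to -2.29 and -2.40, and its fall of 1.79 had the lowest adjusted p of all genes (2.08e-09). HXT4, likewise induced at low glucose, went from -0.21 and -0.10 to -1.96 and -1.84, a fall of 1.75. HXT1, the low-affinity transporter of high glucose, moved the other way, from -0.13 and -0.20 to 0.68 and 0.69. Its rise of 0.85 lay just under the fold threshold (adjusted p 5.69e-05). HXT3, HXT5 and HXT7 were higher by at most 0.25, so the 11 hexose transporter genes tested held 2 past the test on the lower side and 4 on the higher side (1 to 3 with 1 of the 4 arrays left out), with a median of 0.00. HXT7 is nearly identical in sequence to HXT6, so its probe may report both. MAL11 and MAL31, transporters of maltose and related sugars, were at -1.38 and -1.11.

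Water channel genes were also lower. AQY1, which encodes the aquaporin of spores, went from 0.73 and 0.78 to -0.66 and -0.41 (-1.29 ± 0.05 SE), and AQY2 from -0.21 and -0.09 to -1.23 and -1.12 (-1.03 ± 0.04 SE). YLL053C, which in S288C is the part of the AQY2 reading frame cut off by a frameshift, fell by 0.98 and was the first gene outside the fold threshold. Of 5 genes of the aquaporin family, 3 were lower and 0 higher. The study reported water transport as enriched among its repressed genes on these arrays, so the count is not independent evidence. The 2 glycerol channel relatives in the list did not pass the test. The siderophore transporters SIT1 (-0.67), ARN1 (-0.63) and ENB1 (-0.63), which import iron chelates, were lower too. Siderophore transport is another function that the study reported as enriched on these arrays. In the wider Aft1 iron regulon, 8 of 23 genes were lower and 2 higher, with a median of -0.03, and 3 to 4 lower and 1 higher with 1 of the 4 arrays left out.

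RSB1, which exports sphingoid bases from the plasma membrane, fell by 1.11, on a dim signal of 155 and 148 at 0 min. It belongs to the Pdr1 and Pdr3 regulon of multidrug resistance, in which pump genes moved the other way: PDR15 was at 0.58, PDR5 at 0.51 and YOR1 at 0.45, each past the test. RTA1, a relative of RSB1, was at -0.79, on red signals of 93.6 and 85.8 at 0 min. At 45 min its red signals were 22.7 and 25.7, under the floor on both arrays, so the size of its fall depends on the floor. Of the 12 genes in this list, 2 were lower and 4 higher. With a floor of 200, 0 were lower and 4 higher.

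A smaller group of 4 genes called lower acts in membrane lipid synthesis. ERG28, the scaffold of sterol C-4 demethylation, went from 0.00 and -0.06 to -1.31 and -1.38. NCP1, the reductase that feeds electrons to the sterol P450 enzymes, went from -0.30 and -0.41 to -1.49 and -1.46. SUR2, the hydroxylase of sphingoid bases, was at -1.12, and FAA3, a long-chain acyl-CoA synthetase, lay at the threshold (-0.99 and -1.02 in the 2 cultures). In the list of 24 sterol synthesis genes 3 were lower and 2 higher, ERG28 being the lowest and ERG3, the C-5 desaturase, the highest at 0.32.

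Cell surface and secreted proteins gave 3 genes. PHO12, a secreted acid phosphatase, went from 0.55 and 0.59 to -0.84 and -0.92 (-1.45 ± 0.05 SE). Its near-identical copy PHO11 was at -0.65, and since the probes may share signal the split between them is uncertain. PHO5, the main secreted acid phosphatase, was at -0.37, and of 14 genes of the phosphate regulon, active here under phosphate limitation, 5 were lower and 2 higher (2 to 3 and 1 to 2 with 1 of the 4 arrays left out). ZPS1, a cell wall protein that responds to zinc and pH, fell by 1.39.

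DSE4, a glucanase that daughter cells secrete to cut the septum, went from -0.07 and -0.08 to -1.21 and -1.18, with one of the narrowest errors of the called genes (-1.12 ± 0.02 SE). The other genes of mother-daughter separation lay on the other side of 0: 7 of 15 were higher at an adjusted p under 0.05, among them DSE3 (0.35), EGT2 (0.34) and DSE1 (0.21), and only DSE4 and AMN1 (-0.31) were lower. With 1 of the 4 arrays left out, 4 to 5 were higher. DSE4 thus lay on the opposite side from most of the list.

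The last 7 genes called lower have other or unknown functions. REE1, a cytoplasmic protein connected to enolase, went from 0.24 and 0.18 to -1.73 and -1.67 (-1.91 ± 0.06 SE), and its neighbour YJL218W fell by 1.14, the only adjacent pair of genes that were both called. BDH2, a putative butanediol dehydrogenase, fell by 1.46, whereas its neighbour and close relative BDH1 was at -0.02. SKM1, a kinase of the PAK family, was at -1.07, and the uncharacterised genes RRT6 and YHR214C-D were at -1.85 and -1.54. ICS2 fell by 1.88 but had the widest error (0.35 SE, adjusted p 0.00956), although its change was -1.86 and -1.90 in the 2 cultures. On red signals of 101.3 and 131.9 at 45 min, the change ranged from -2.02 to -1.08 across the processing settings tried.

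Of the 8 genes called higher, 4 encode transporters. BAP2, a permease of branched-chain amino acids, went from -1.46 and -1.64 to -0.21 and -0.38 (1.25 ± 0.03 SE). AMF1, a low-affinity ammonium transporter, went from 0.11 and 0.13 to 1.35 and 1.33, and PTR2, the importer of di- and tripeptides, from -0.27 and -0.41 to 0.90 and 0.93. MPC3, a subunit of the mitochondrial pyruvate carrier, rose by 1.05. All 4 lost their call under normexp and loess, at 0.97 for BAP2, 0.74 for AMF1, 0.69 for PTR2 and 0.99 for MPC3. With a floor of 200 BAP2 lay at 0.71, AMF1 at 0.03 and PTR2 at 0.00, since red signals under 200 take its value: those of PTR2 were 54.1 and 55.3 at 0 min and 109 and 155 at 45 min.

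CUP9, known as the repressor of PTR2, was lower by 0.64. The proline permease gene PUT4 was higher by 0.65 and the general amino acid permease GAP1 by 0.32, while MEP3, an ammonium transporter, was lower by 0.31. MEP3 no longer passed the test with any 1 of the 4 arrays left out. Of 26 genes of nitrogen use, 14 were higher and 1 lower past the test, with a median of 0.18, and 6 to 7 were higher with 1 of the 4 arrays left out.

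RNR2, the small subunit of ribonucleotide reductase, rose from 0.13 and 0.17 to 1.59 and 1.71, a 2.84-fold increase (1.51 ± 0.08 SE, adjusted p 9.35e-06). Its partner genes did not follow: RNR1, RNR3 and RNR4 were at 0.07, 0.06 and 0.00, and none passed the test. Of the 9 genes tested in the list only RNR2 and DIF1 (0.20), which brings the small subunits into the nucleus, were higher, and with 1 of the 4 arrays left out 1 gene was. YOR343C, a doubtful reading frame, rose by 1.48 next to YOR342C, which was at 0.76.

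Among the other gene lists, all 21 G1/S genes were above 0 in both cultures, 20 at an adjusted p under 0.05, with a median of 0.29. They included POL30, the sliding clamp of DNA replication (0.46), the cyclin genes CLN2 (0.40) and CLN1 (0.29), and MCD1, a cohesin subunit (0.43). The same list had a median of 0.11 at 30 min and of 0.41 at 90 min. With 1 of the 4 arrays left out, 14 to 16 of the 21 passed. Of 10 G2/M genes 7 were higher, and 2 to 3 with 1 array left out. Of 10 histone genes 2 passed on the higher side, and 0 with any 1 of the 4 arrays left out, under normexp and loess or without a floor. None of these changes reached 2-fold.

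Of 50 ribosome biogenesis genes, 16 were lower and 0 higher, with a median of -0.12, and 3 to 5 were lower with 1 of the 4 arrays left out. Of 32 Gcn4 targets of amino acid synthesis, 9 were lower, with a median of -0.13, and 2 to 3 with 1 array left out. Of 136 cytosolic ribosomal protein genes, 11 were lower, close to the share of all genes, with a median of -0.05, and 1 to 4 with 1 array left out. Of 30 genes induced by environmental stress, 13 were higher, among them HSP12 (0.38) and CTT1, the cytosolic catalase (0.36), and 1 was lower, GPH1, the glycogen phosphorylase (-0.59). Leaving out 1 of the 4 arrays gave 4 to 9 higher. The proteasome genes, 33 in number, held 0 past the test in either direction. Most shifts of this size passed the test only as ratios to the reference. In the red channel alone 56 genes in all were past it on the lower side and 47 on the higher, in place of 481 and 531. There 0 of the 21 G1/S genes and 0 of the 50 ribosome biogenesis genes passed, 1 of the 14 nitrogen genes and 1 of the 13 stress genes on the higher side, and 7 of the 11 transcription factors of the study. The medians there were of similar size, 0.24 for G1/S, -0.10 for ribosome biogenesis, 0.18 for nitrogen use and 0.13 for stress genes, so that the p and not the size was lost.

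**Figure D3:**
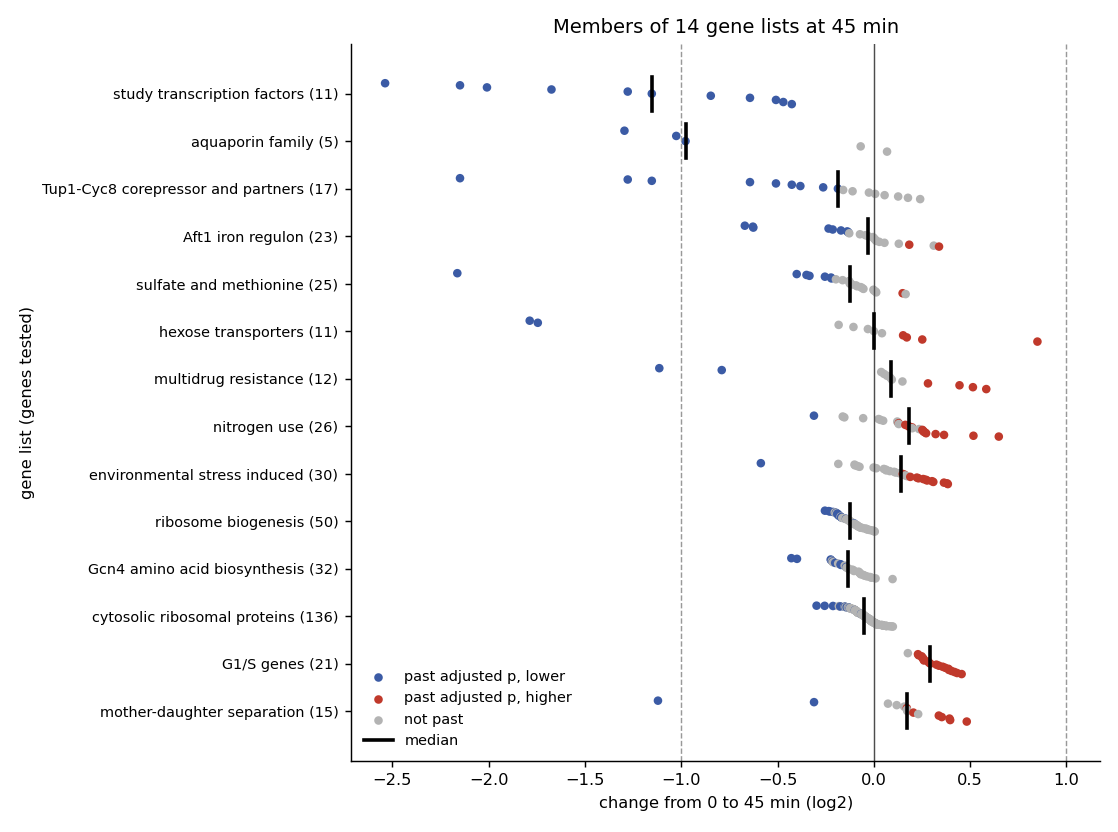
Change from 0 to 45 min on the log2 scale for the members of 14 gene lists, 1 point per gene, with the number of genes tested in parentheses and a black bar at each median; blue and red points passed an adjusted p under 0.05 on the lower and higher side. The study's transcription factors and the aquaporins have medians of -1.15 and -0.98, and the G1/S genes lie on the higher side as a whole, with a median of 0.29.

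The samples before and after place 45 min on the way down. The 30 genes called lower had a median of 0.07 after 5 min, which fell to -0.37 by 15 min, to -0.63 by 20 min and to -1.06 by 30 min. It was -1.38 in the 45 min samples and -2.13 in the last ones. At 5 min, 21 of them lay above their 0 min value, the largest being CIN5 (0.82), RSB1 (0.80), BDH2 (0.71) and HXT4 (0.62), and at 20 min 0 did. The 5 min values were not tested, and the share of all genes above their 0 min value was not counted, so these counts are a description. By 30 min 16 of the 30 had moved by at least 2-fold, and by 90 min all 30. The change at 45 min amounted to 74.9% of that at 90 min in the median gene, from 51.8% for NCP1 to 120% for ICS2. The value for ICS2 rests on a mean of cultures that disagreed at 90 min (-0.81 in A and -2.32 in B).

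Between 30 and 45 min, 0 genes changed by 2-fold in either direction, also at an unadjusted p. Past the adjusted p of 0.05 were 93 genes that were lower at 45 than at 30 min (1.54% of those tested) and 108 that were higher (1.79%). The deepest step was that of HXT4 (-0.68), from -1.07 to -1.75, and the largest rise that of PTR2 (0.96), from 0.29 to 1.25. AGA1, an agglutinin gene of mating (-0.11 before and -0.58 after this interval), and POL30 (0.06 and 0.46) had hardly moved until then. Of the 30 genes called lower, 22 fell further and 0 rose, and of the 8 called higher 3 rose further. These genes were chosen with the same 45 min arrays, so the counts are a description.

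From 45 to 90 min, 506 genes fell (8.37%) and 536 rose (8.87%) past the same p, and 7 (0.116%) and 3 (0.0496%) by at least 2-fold. Of the 30 genes called lower at 45 min, 26 fell further, with a median step of -0.52, and 0 rose. YAP6, ICS2, YJL218W and RSB1 were the 4 without a further fall past the test. At 45 min the red signals of RSB1 (58 and 81) and YJL218W (87 and 65) were already near the floor, which limits any further fall. RRT6, on similar signals (57 and 70), still had a step of -0.36 past the test. For ICS2 the cultures disagreed at 90 min (-0.81 in A and -2.32 in B). YAP6 had reached -1.90 by 30 min and stood at -2.15 and -2.29 in the next samples, so that most of its measured change lay before 45 min. Its red signals at 45 min (106 and 84) were also near the floor, which limits a further fall here too. AQY1 (-1.29 to -2.43), GAT2 (-1.67 to -2.73) and NCP1 (-1.12 to -2.16) still fell by more than 2-fold after it.

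The genes called higher differed in their course. ROF1 and URA3 had risen by 3.43 and 2.84 after only 5 min and ended at 4.01 and 3.05, and MPC3, at 1.05 in the 45 min samples, had risen by 0.82 by then. PTR2, BAP2 and AMF1 were still at 0.00, 0.13 and 0.29 at 15 min and reached 4.91, 2.52 and 2.36 at 90 min. At 45 min these 3 genes had risen alike, by 1.25, 1.25 and 1.23, and PTR2 then rose by a further 3.66. RNR2 and YOR343C took a middle course, at 0.80 and 1.00 by 20 min and at 1.79 and 1.71 by 90 min.

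**Figure D4:**
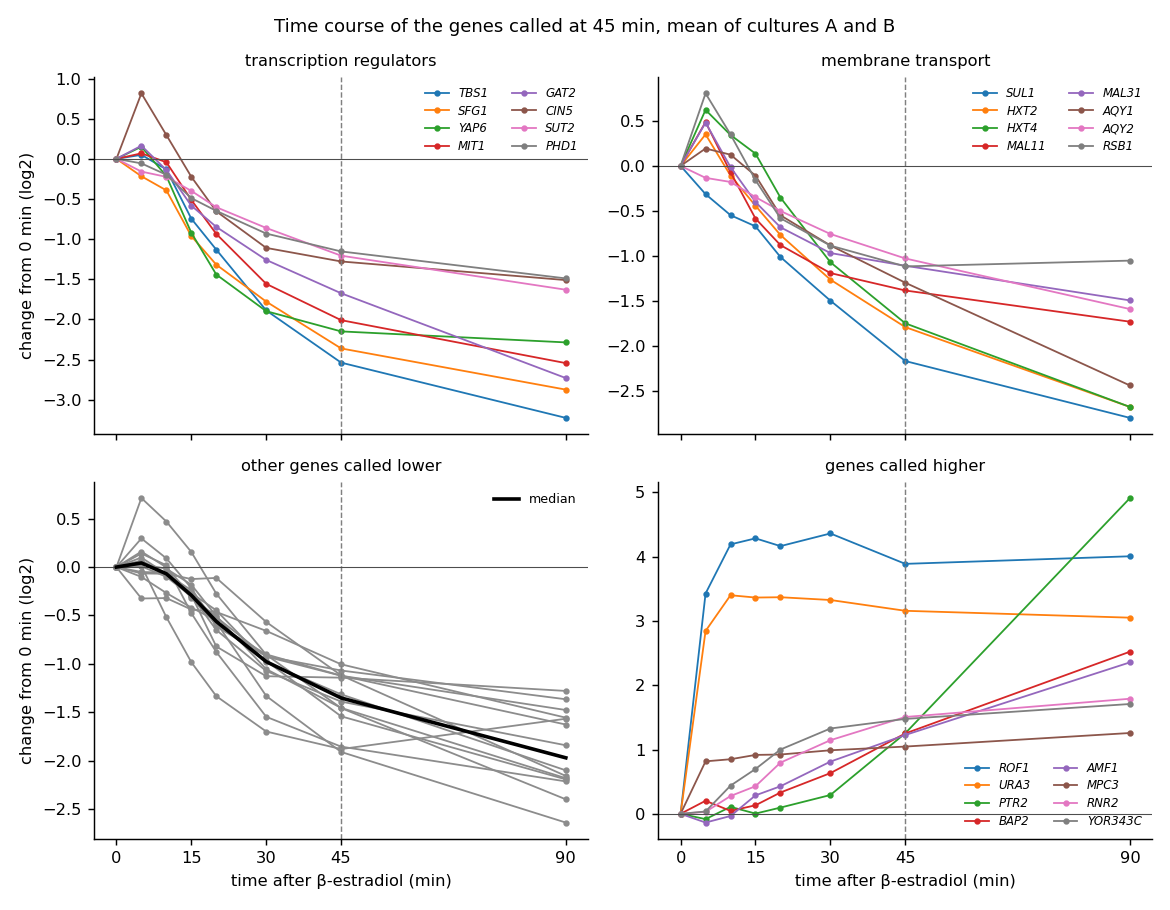
Mean change of cultures A and B from 0 min on the log2 scale (y axis) against time after β-estradiol in min (x axis) for the 38 genes called at 45 min, which the dashed lines mark; the panels hold 8 transcription regulators, 8 membrane transport genes, the other 14 genes called lower with their median as a black line, and 8 genes called higher. The regulators and transporters called lower are below 0 from 20 min on, whereas PTR2, BAP2 and AMF1 stay near 0 until 15 min and rise most after 45 min.

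The genes nearest to the fold threshold show how the counts depend on it. Just inside on the lower side were FAA3 (2.01-fold), AQY2 (-1.03) and SKM1 (-1.07), and just outside were YLL053C (-0.98), YER053C-A (-0.97) and PHO23 (-0.95). On the higher side MPC3 (1.05), AMF1 (1.23) and BAP2 (1.25) were just inside, and HSP30 (0.93), BNS1 (0.85) and HXT1 (0.85) just outside. With 4 arrays in the comparison the spread rests on all 16 arrays: from the 4 arrays alone, with 1 residual degree of freedom, limma called 0 genes, with 30 lower and 8 higher at an unadjusted p under 0.05.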

How the data were processed

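RNA of 2 chemostat cultures at 8 times was measured on 16 two-colour arrays. The authors extracted spot intensities with Feature Extraction 12.0.1.1, background subtracted and dye normalized within each array per the file headers, and deposited them beside a log2 ratio table (red over green, floored at 50). Recomputed ratios differed from that table by over 1e-04 at 0 of 12512 spots. Outlier spots were dropped, the 2 spots of a probe averaged, and for 29 genes with several probes the brightest was taken. Of 6225 genes, 6046 had red well above background on at least 2 arrays and were tested; 5720 matched a RefSeq R64 name, used for names and neighbours only. The number of arrays limits the precision.

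limma 3.58.1 in R 4.3.3 (lmFit, eBayes) was fitted to all 16 arrays, with a factor for time and a block for culture (7 residual degrees of freedom, prior 0.89). The block follows the labels, since each culture was sampled at every time: gene by gene differences between cultures at 0 and 45 min correlated at r = 0.39 across genes, which are not independent replicates (28 pairs of times, -0.05 to 0.40). P-values were adjusted by Benjamini-Hochberg. A call needed an adjusted p under 0.05 and a log2 change of at least 1. SE is from the fit. The script was tested on simulated data. Named genes were ROF1, its neighbours, the markers, the study's transcription factors, every called gene, the 3 genes on each side of the fold threshold and, from each of 38 lists, called members and up to 4 with the largest change. AGA1, CLN1, BDH1, RNR1, RNR3 and RNR4 and the genes cited from the middle of a list were added with their values in view. The comparison, its members and the lists were chosen with earlier results of these data known. Tried besides were normexp with loess, the deposited ratios with outlier spots kept, other floors, filters, centring, the red channel alone (quantile normalized), no block, the 4 arrays alone, an intensity trend, other minimum changes and each array left out. The raw intensities for normexp were medians of spots. Promoter sequences were not analysed here.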

Additional observations from a re-analysis of the deposited data

Results flagged for a closer look

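From 45 to 90 min 10 genes differed by at least 2-fold (limma, difference of the 2 times tested in the same fit, adjusted p under 0.05). HO, the endonuclease of mating-type switching, was at 0.16 at 45 min and at -1.26 at 90 min, a difference of -1.42, so its fall lay wholly after the 45 min sample. YDL218W, an uncharacterised gene, differed by -1.12 and was at -0.08 at 45 min. AQY1 differed by -1.14, GAT2 by -1.06 and NCP1 by -1.04, all 3 already called lower at 45 min. TIP1, a cell wall mannoprotein gene next to BAP2, differed by -1.03. MF(ALPHA)1 also differed by -1.03, on a red signal of 217 and 222 at 0 min in cells whose markers are those of MATa. The 3 genes that differed upwards were PTR2 (3.66), BAP2 (1.27) and AMF1 (1.13).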

How the results depend on the processing

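Without the replicate block, 30 genes were lower and 8 higher, as with it. Leaving out 1 of the 4 arrays gave 29 to 31 lower and 7 to 10 higher: without the 0 min array of culture A MPC3 lost its call, without that of culture B FAA3 and ICS2 did, and ICS2 also without the 45 min array of A. Higher calls numbered 4 under normexp and loess and 5 with a floor of 200, and lower calls 25 and 27. Under normexp and loess FAA3, MAL31, RSB1, SKM1 and YJL218W lost their lower calls. With the floor of 200 RRT6, RSB1 and YJL218W lost theirs, their red signals lying under 200 at 45 min. Fitted to 4 arrays, limma called 0 lower and 0 higher (30 and 8 at an unadjusted p under 0.05, lowest adjusted p 0.0825), and ROF1, at 3.89, had an adjusted p of 0.0891. Without a minimum change 481 were lower and 531 higher, with 0.5 as minimum 86 and 37. In the red channel alone, 27 of the 30 genes kept their call (NCP1, at -1.07, and YJL218W, at -1.43, lost the adjusted p only, and FAA3 lay at -0.84), and 56 and 47 genes passed the adjusted p. MYO1 changed sign there (-0.0765), and MF(ALPHA)1 with a floor of 200 (0.105). From 45 to 90 min normexp and loess gave 4 lower by 2-fold and the red channel 3, in place of 7. Without the 45 min array of culture B, 2 genes rose by 2-fold from 30 to 45 min. Sizes of changes that start or end near the floor, as for ROF1, PTR2, RRT6, SUL1, YAP6 and ICS2, are limited by signal over background.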

Other observations

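In the small lists of mating genes, members passed the test at 45 min only on the lower side. The shares were 16.67% of the pheromone response, 16.67% of the a-specific and 25% of the alpha-specific genes, against 7.96% of all genes tested. Of 12 pheromone response genes, 2 were lower past the test, AGA1, an anchor of the mating agglutinin (-0.58), and FUS1, a cell fusion gene (-0.40), and 0 were higher. Of 6 a-specific genes, STE2 was lower (-0.40). Of 4 alpha-specific genes MF(ALPHA)1 was lower (-0.61). With 1 of the 4 arrays left out, 1 to 2 pheromone response, 0 to 1 a-specific and 0 alpha-specific genes passed. Pyrimidine synthesis genes other than URA3, which the construct carries, held 4 of 10 lower and 0 higher.

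Of 38 genes of the TCA cycle and respiratory chain, 9 were lower and 1 higher, with a median of -0.13, and 3 to 5 lower and 0 to 1 higher with 1 of the 4 arrays left out. Glycolysis and ethanol genes held 3 lower and 4 higher of 18 (1 to 3 and 0 to 4 with 1 array left out), and gluconeogenesis and glyoxylate genes 0 lower and 1 higher of 13. Mitochondrial ribosomal proteins held 5 of 63 lower (1 to 3 with 1 array left out), near the share of all genes, and heat shock genes and chaperones 4 of 24 higher. In the red channel alone 0 of the TCA cycle and respiratory chain genes passed on either side.

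The remaining lists are small, and over all genes tested 7.96% were lower and 8.78% higher past the test. The M/G1 genes had the largest share among them, 45.45% on the higher side. M/G1 genes were higher in 5 of 11 cases (3 to 4 with 1 array left out), cell wall integrity targets lower in 3 and higher in 3 of 17, amino acid permeases lower in 3 and higher in 3 of 18, and anaerobic cell wall genes higher in 1 of 6 (0 to 1). Peptide import genes held CUP9 lower and PTR2 and DAL5 (0.25) higher. The galactose genes, 6 in number, held 0 past the test, and sporulation and meiosis genes 1 lower of 12.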
